A study of Mus musculus with 54 samples.

Results

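The genes described here are 36 members of the mitotic machinery, a list of gene symbols looked up in the gene tables of a study of whole mouse cerebellum; the largest of those tables lists 34590 genes. Ube2c, Pttg1 and Bub1b are set against the other 33 members throughout. The study measured RNA by sequencing in 54 libraries from mice that carry "RnaseH2B Nes-cre" alone, "Atm Nes-cre" alone, "p53 Nes-cre" alone, "RnaseH2B,Atm Nes-cre" or "RnaseH2B,p53 Nes-cre", or that are labelled "Control". Nes-cre is a Cre recombinase under a nestin promoter, which is active in neural progenitors, so cells of other origin keep the targeted gene, and the alleles carried by the controls are not given in the sources used here. At postnatal day 5 (P5), total RNA was sequenced from all 6 genotypes, with 4 libraries for each compound mutant and 3 for each other group. The P28 set held poly-A enriched RNA from the controls, both of the single mutants Rnaseh2b and Atm, and their compound Rnaseh2b/Atm, with 5 libraries per genotype. At 9 weeks there were 7 Control and 7 Rnaseh2b libraries of total RNA. No label says whether libraries of a group came from separate animals, so p-values here measure the spread between libraries, which may be technical.

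Rnaseh2b encodes a subunit of the enzyme that removes ribonucleotides from DNA, Atm encodes the kinase that responds to DNA double-strand breaks, and Trp53 encodes p53. Entry into mitosis is driven by Cdk1 with its cyclins. Anaphase begins when the anaphase-promoting complex (APC/C), activated by Cdc20 and fed with ubiquitin by the conjugating enzyme Ube2c, destroys securin, the product of Pttg1, and cyclin B. Until every chromosome is attached to the spindle, the checkpoint protein BubR1, the product of Bub1b, holds Cdc20 back together with Mad2l1. In the cerebellum of the newborn mouse, granule neuron progenitors divide in the external granule layer, and most of this division ends in the first weeks after birth. Afterwards the dividing cells are few, oligodendrocyte progenitors among them.

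Many mitotic genes share short promoter elements: the cell cycle homology element TTTGAA or TTCGAA, through which the MuvB and DREAM complexes act, and the CCAAT box, which NF-Y binds. RefSeq (GRCm38.p6) gave a promoter for 29 of the 36 members, and windows from 250 bases before to 30 bases after the start were searched on both strands. No record was matched for Aurkb, Ccna2, Cdc25c, Foxm1, Incenp, Kif20a and Tpx2. TTTGAA or TTCGAA was found in 19 of the 29 (65.5%) against 18.4% of all 32851 windows of the same 280 bases, CCAAT in 21 (72.4%) against 36.1%, and both in 17 (58.6%) against 6.92%. A match is a description of the letters and not a site. The windows of Ube2c, Pttg1 and Bub1b are shown because these 3 genes are set against the rest, and those of Anln and Kif23 because they had the smallest adjusted p among the other called members with a promoter record in the P28 comparison of Rnaseh2b/Atm with Atm. Capitals mark each match on either strand. Read on the other strand, TTTGAA becomes TTCAAA. The CCAAT letters become ATTGG, and TTCGAA reads alike on both. Each window is read 5′ to 3′ along the gene's strand.
Ube2c, chr2:164769679-164769958, plus strand: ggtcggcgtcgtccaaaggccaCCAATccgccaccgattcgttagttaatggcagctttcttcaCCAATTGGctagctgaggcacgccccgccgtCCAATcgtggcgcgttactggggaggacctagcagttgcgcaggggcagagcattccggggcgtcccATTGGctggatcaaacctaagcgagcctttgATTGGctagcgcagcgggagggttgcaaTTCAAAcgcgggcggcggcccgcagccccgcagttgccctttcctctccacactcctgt
Pttg1, chr11:43425952-43426231, minus strand: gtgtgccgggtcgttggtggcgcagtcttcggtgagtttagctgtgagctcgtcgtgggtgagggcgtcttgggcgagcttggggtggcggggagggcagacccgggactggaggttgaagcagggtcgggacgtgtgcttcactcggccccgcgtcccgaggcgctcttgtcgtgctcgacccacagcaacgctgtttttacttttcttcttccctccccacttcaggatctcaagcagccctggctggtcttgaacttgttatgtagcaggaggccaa
Bub1b, chr2:118597961-118598240, plus strand: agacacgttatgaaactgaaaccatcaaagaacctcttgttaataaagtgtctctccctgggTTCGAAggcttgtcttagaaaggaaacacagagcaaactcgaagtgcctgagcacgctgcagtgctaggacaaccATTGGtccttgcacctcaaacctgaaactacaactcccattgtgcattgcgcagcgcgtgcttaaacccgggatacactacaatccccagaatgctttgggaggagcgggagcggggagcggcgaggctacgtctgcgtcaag
Anln, chr9:22389177-22389456, minus strand: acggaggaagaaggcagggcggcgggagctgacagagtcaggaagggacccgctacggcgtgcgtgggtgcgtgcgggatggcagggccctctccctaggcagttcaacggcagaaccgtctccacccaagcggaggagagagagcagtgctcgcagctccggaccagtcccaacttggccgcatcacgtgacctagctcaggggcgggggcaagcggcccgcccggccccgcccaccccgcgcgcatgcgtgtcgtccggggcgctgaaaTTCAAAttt
Kif23, chr9:61946770-61947049, minus strand: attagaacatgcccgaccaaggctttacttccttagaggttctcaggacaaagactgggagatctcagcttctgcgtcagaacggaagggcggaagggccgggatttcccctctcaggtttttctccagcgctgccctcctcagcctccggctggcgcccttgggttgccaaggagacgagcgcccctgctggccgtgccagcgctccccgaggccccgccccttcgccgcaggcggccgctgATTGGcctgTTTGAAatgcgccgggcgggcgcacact
The window of Ube2c holds CCAAT letters on both strands and TTCAAA close to the start, that of Bub1b holds TTCGAA and ATTGG, that of Kif23 holds ATTGG next to TTTGAA, and that of Anln holds TTCAAA. None of these letters is in the window of Pttg1. That window lies inside the gene as GENCODE gives it, which starts at 43426251 on the minus strand. The bases before that start were therefore not searched for Pttg1.

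All 36 members were in the P5 table, 35 in the P28 table and 31 at 9 weeks. Genes were tested where 1 CPM (the reads of a gene scaled to the size of its library) was reached in 3 libraries at P5, 5 at P28 or 7 at 9 weeks, which left 36 members at P5, 27 at P28 and 18 at 9 weeks. At P28, Ccnb1, Cdk1, Bub1, Ttk, Aurkb, Birc5, Ndc80 and Kif2c fell under this limit and Cdc25c was not in the table. At 9 weeks, Ccnb1, Cdk1, Foxm1, Ube2c, Bub1, Ttk, Plk1, Aurka, Cdca8, Cenpa, Nusap1, Kif20a and Kif23 were under the limit, and Cdc25c, Aurkb, Birc5, Ndc80 and Kif2c were not in the table. Kif23 passed at P28 with 4 Rnaseh2b/Atm libraries and 1 Rnaseh2b library at 1 CPM or above. At 9 weeks Pttg1, Bub1b, Nuf2 and Ect2 reached 1 CPM in all 7 Rnaseh2b libraries and in 5, 6, 4 and 6 controls, and Ccnb2 in all 7 controls and 6 Rnaseh2b libraries. Cenpf and Top2a reached it in 6 Rnaseh2b libraries and in 4 and 5 controls, so they passed only over both groups together. Tests compare log2 CPM with limma, each age fitted separately over all its groups, and a gene is called where the p-value adjusted over all genes tested (Benjamini-Hochberg) is under 0.05. Differences are given on the log2 scale with their standard error after ±.

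The members were abundant at P5 and mostly scarce later. The median of the members' mean control levels, on the log2 CPM scale, was 4.52 at P5 (3.01 to 7.93), 0.69 at P28 (-2.68 to 5.08) and 0.12 at 9 weeks (-2.19 to 5.40). Ages differ in RNA selection and were normalized in separate tables, so no difference between ages was tested. Top2a, the topoisomerase that untangles chromosomes, had a mean control level of 7.93, 0.69 and 0.08 log2 CPM at the 3 ages, and the proliferation marker Mki67 had 7.62, 0.71 and 0.68. Anln, the cytokinesis scaffold anillin, went the other way in the table: its mean control level was 4.50, 5.08 and 5.40. Anillin also helps to assemble septins in myelin. Incenp, of the chromosomal passenger complex, kept a mean control level of 4.84, 4.26 and 3.35 log2 CPM. Racgap1, of the centralspindlin complex, kept 5.79, 3.88 and 3.61.

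Per length, the order of the members also changed. In FPKM, which divides by gene length and library size, the P5 controls had Top2a at 39.5 ± 20.9 (SD, n = 3), Ccna2, the cyclin of S phase and early mitosis, at 31.0 ± 17.0 and Mki67 at 28.8 ± 15. Bub1b had 12.5 ± 6.45 FPKM, Ube2c 9.80 ± 4.40 and Pttg1 7.24 ± 2.06. The lowest was Foxm1, a transcription factor of mitotic genes, at 4.05 ± 1.97. These SDs are large beside the means, since Control library 2 was low. In the P28 controls Anln led at 6.20 ± 0.59 FPKM (SD, n = 5), ahead of Incenp at 5.87 ± 0.27. Pttg1 came next at 3.63 ± 3.56 FPKM, with an SD as large as its mean, and Mad2l1 followed at 2.53 ± 0.15.

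Before the comparisons, the labels and the libraries were checked. Rnaseh2b was lower in every library labelled with its deletion than in every other library of its age (mean 2.01 against 4.27 log2 CPM in controls at P5, 1.12 against 2.84 at P28 and 2.45 against 3.47 at 9 weeks). Trp53 was at a mean of 1.64 in p53 and 2.02 in Rnaseh2b/p53 libraries against 3.71 in P5 controls. Atm RNA was close to controls in the libraries labelled Atm alone (5.58 against 5.87 at P5, 4.79 against 4.83 at P28), so this RNA does not check that label. In Rnaseh2b/Atm it was at 5.28 to 5.70 at P5, overlapping the controls (5.35 to 6.22), and at P28 at 3.97 to 4.10, below every control (4.79 to 4.94). Depth was 48155385 to 95071392 reads in genes at P5, apart from Rnaseh2b/p53 library 3 at 710983997 reads, and 24086855 to 89659472 at P28. At P5, Control library 2 and Atm library 1 stood apart. Their values for the 33 members were below the mean of their groups' other libraries by a median of -1.38 and -2.38 log2 CPM. These libraries were also the lowest of their groups in the summed CPM of marker lists: granule progenitor 225 and 156, granule neuron 621 and 259, Purkinje cell 477 and 249, and choroid plexus 110 and 45. They were the highest of their groups for midbrain markers, at 137 and 174. Their part in the P5 results was measured by leaving both out.

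At P5 the members moved together from library to library, with Pttg1 as the exception. The mean over the 33 other members, in log2 CPM, was 5.47, 3.92 and 5.03 in Control libraries 1 to 3, 5.33, 4.98 and 5.42 in Rnaseh2b, and 2.66, 4.83 and 5.01 in Atm. It was 5.19, 4.93 and 5.30 in p53, 5.35, 5.33, 5.15 and 4.97 in Rnaseh2b/p53, and 4.66, 4.36, 4.51 and 4.12 in Rnaseh2b/Atm. All 4 Rnaseh2b/Atm libraries therefore lay below every library of Rnaseh2b, p53 and Rnaseh2b/p53, and within the range of Control and Atm, which the libraries that stand apart widen. The SD between libraries of a group was 0.41 to 0.72 for the 33 members (median 0.63), against a median of 0.157 over all genes. Both libraries that stand apart enter these SDs.

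**Figure D1:**
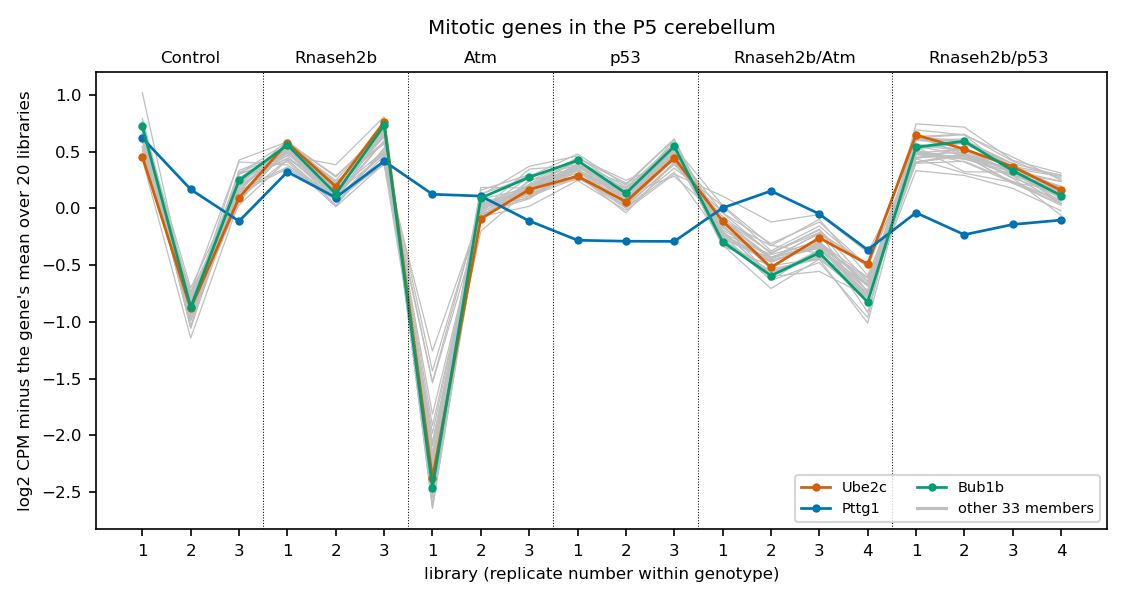
Level of each member in each of the 20 P5 libraries, as log2 CPM minus the gene's own mean over the 20 libraries; the horizontal axis lists libraries by genotype. Grey lines are the other 33 members, which drop with Ube2c and Bub1b in Control library 2 and Atm library 1 and lie low in all Rnaseh2b/Atm libraries, while Pttg1 stays flatter.

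With all 20 libraries, limma called 0 of the 36 members in any of the P5 comparisons. The background, the share of all 15421 genes called, was 0.681% for Rnaseh2b against Control, 0% for Atm against Control, 0.175% for p53 against Control, 9.86% for Rnaseh2b/Atm against Control and 0.428% for Rnaseh2b/p53 against Control. Between mutants it was 9.5% for Rnaseh2b/Atm against Atm, 0.188% for Rnaseh2b/p53 against p53, 2.04% for Rnaseh2b/Atm against Rnaseh2b, 3.02% for Rnaseh2b/p53 against Rnaseh2b and 27.9% for Rnaseh2b/Atm against Rnaseh2b/p53. It was 0% for the interaction of Rnaseh2b with Atm and 0.00648% for that with p53. At an unadjusted p under 0.05, 9 of the 36 members passed for Rnaseh2b/Atm against Rnaseh2b, beside 3509 of all 15421 genes. For Rnaseh2b/Atm against Rnaseh2b/p53, 10 members passed, beside 6646 of all genes. In each of the other comparisons 1 member or none passed. Every Rnaseh2b/Atm library was below every Rnaseh2b library for 34 of the 36 members, where 18% of all genes separate in this way, and below every Rnaseh2b/p53 library for 33, where 22.9% do. The median member difference was -0.84 for Rnaseh2b/Atm against Rnaseh2b and -0.79 against Rnaseh2b/p53, beside medians over all genes of 0.01 and 0.02.

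These 2 comparisons use neither of the libraries that stand apart, except through the spread that all groups share. With only the compared groups in the fit, 34 of 36 members were called lower in Rnaseh2b/Atm than in Rnaseh2b (8.92% of all genes called lower) and 35 lower than in Rnaseh2b/p53 (23.8%). With all groups but without Control library 2 and Atm library 1, 35 were called lower than in Rnaseh2b (14.2% of all genes called lower) and 35 lower than in Rnaseh2b/p53 (24.3%). Without both, 34 were also called lower than in the other 2 controls, by -1.21 to -0.32 over the 36 members with a median of -0.84 (22.2%), and 19 lower than in the other 2 Atm libraries, with a median of -0.51 (12.7%). Leaving out any single library of the compared groups called 0 in every P5 comparison. The libraries left out are those with the lowest member values, so their removal acts directly on the comparisons with Control and Atm. In bulk RNA, fewer dividing cells and less of this RNA per cell cannot be told apart.

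Leaving out both libraries, which were low for these same members, kept only Control libraries 1 and 3. In this fit members of every role were called lower in Rnaseh2b/Atm than in the controls, and the sizes differed by gene. With all libraries no member was called, so the values below describe this fit and are no independent support. Mki67 differed by -1.21 ± 0.19 (adjusted p = 0.000402) and Top2a by -0.89 ± 0.17 (0.00118). Of the cyclin arm, Ccna2 differed by -0.95, Ccnb1 by -0.68, Ccnb2 by -0.50 and Cdk1 by -0.55, all called. Of the kinetochore genes, Cenpe, the kinesin that brings chromosomes to the metaphase plate, differed by -1.06 ± 0.16 (0.00027) and Cenpf by -1.07 ± 0.19 (0.000725). Of the spindle motors, Kif11, which pushes the spindle poles apart, differed by -1.04 ± 0.16 (0.000301). The checkpoint kinases Ttk and Bub1 differed by -1.13 and -0.99. Of the cytokinesis genes Kif23, the motor of centralspindlin, differed by -1.0 ± 0.15 (0.000286), and Prc1, which bundles midzone microtubules, by -0.39 ± 0.16 and was not called (0.0573). Prc1 was the smallest difference among the 33 here and also against Rnaseh2b, at -0.44 ± 0.14 (0.0343).

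Ube2c followed the other members at P5. Its levels were 4.73, 3.40 and 4.37 log2 CPM in Control, 4.86, 4.47 and 5.04 in Rnaseh2b, 1.90, 4.19 and 4.44 in Atm, and 4.16, 3.76, 4.02 and 3.79 in Rnaseh2b/Atm. Bub1b was at 5.88, 4.29 and 5.41 in Control, 5.72, 5.29 and 5.89 in Rnaseh2b, 2.70, 5.25 and 5.44 in Atm, and 4.87, 4.57, 4.77 and 4.34 in Rnaseh2b/Atm. Both therefore fall in the same libraries as the 33, and in each of the 12 P5 comparisons their difference lay inside the range of the 33. Leaving out both libraries that stand apart raises the Control mean of both genes. In that fit Rnaseh2b/Atm differed from Control by -1.01 ± 0.19 for Bub1b (limma adjusted p = 0.00114) and by -0.62 ± 0.17 for Ube2c (0.0117). With all libraries the differences were -0.56 for Bub1b and -0.24 for Ube2c, and neither was called. The values of the reduced fit are therefore no independent support.

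Pttg1 did not share this pattern. Its levels were 3.83, 3.37 and 3.09 log2 CPM in Control, 3.53, 3.30 and 3.62 in Rnaseh2b, 3.33, 3.32 and 3.10 in Atm, 2.93, 2.92 and 2.92 in p53, 3.21, 3.36, 3.16 and 2.84 in Rnaseh2b/Atm, and 3.17, 2.98, 3.07 and 3.10 in Rnaseh2b/p53. Atm library 1, the lowest of all for the 33 members, was at 3.33 for Pttg1, above the other 2 Atm libraries. The within-group SD of Pttg1 was 0.19, against 0.41 to 0.72 for the 33, which the libraries that stand apart widen. Within Rnaseh2b/Atm, which holds neither of those libraries, the SD was 0.22 for Pttg1. For the 33 it ran there from 0.13 (Racgap1) to 0.34 (Cdc25c), so Pttg1 was not flatter in that group. Its difference lay outside the range of the 33 in 9 of the 12 comparisons. Against Rnaseh2b/p53, Rnaseh2b/Atm differed by 0.06 ± 0.14 for Pttg1 without both libraries that stand apart (adjusted p = 0.716), while the called members fell to as low as -1.13 ± 0.15 (Cenpf, 8.65e-05). All p53 libraries were below all controls for Pttg1, which holds for 4.95% of genes, and the difference of -0.51 ± 0.15 was not called (adjusted p = 0.36).

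Related genes at P5 were taken from lists. Of all genes, 3.38% were called lower in Rnaseh2b/Atm than in Control, 0.655% lower than in Rnaseh2b and 14% lower than in Rnaseh2b/p53. Against Rnaseh2b/p53, 13.9% of all genes were called higher. Of 47 other mitotic genes, 1 was called lower in Rnaseh2b/Atm than in Control with a median of -0.44, 0 against Rnaseh2b with a median of -0.81 (the 36 members had -0.84), and 3 lower against Rnaseh2b/p53 with a median of -0.79. Of 17 subunits and partners of the APC/C, which also works outside mitosis, 5 were called lower against Rnaseh2b/p53 with a median of only -0.10. Of 21 DREAM, MuvB and E2F regulators, 2 were called higher and 8 lower in that comparison (median -0.45). Granule progenitor markers moved with the members. Their summed CPM was 241 to 327 in Rnaseh2b/Atm, 358 to 470 in Rnaseh2b and 364 to 445 in Rnaseh2b/p53, and 3 of 10 were called lower against Rnaseh2b/p53. Microglial markers were higher, at 216 to 241 summed CPM against 158 to 181 in Rnaseh2b and 130 to 141 in Rnaseh2b/p53, with 9 of 10 called higher in the last comparison. Purkinje cell markers were at 1412 to 2181 against 1112 to 1337 and 840 to 1133. The part of these cell types in the members' difference was not tested.

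At P28 few of the 27 tested members were called in the single mutants against controls. Rnaseh2b against Control called 1 (background 5.21%), and Atm against Control called 2 (1.86%). Nuf2, of the NDC80 kinetochore complex, was at 1.41, 1.83, 1.38, 1.53 and 1.56 log2 CPM in Control and at 2.33, 2.02, 2.29, 1.71 and 1.90 in Rnaseh2b, a rise of 0.51 ± 0.14 (limma adjusted p = 0.045). The groups overlap, since Rnaseh2b library 4 lies below Control library 2, and the call was kept in 9 of 18 alternatives, with an adjusted p from 0.019 to 0.118. Prc1 was at 3.17, 3.98, 3.10, 3.22 and 3.18 in Control and at 3.99, 3.94, 3.88, 4.15 and 3.96 in Atm, a rise of 0.65 ± 0.16 (0.0411). Control library 2 stands with the Atm libraries for Prc1, and the call was kept in 9 of 18 alternatives (0.00294 to 0.116).

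Bub1b varied more between P28 libraries than nearly all genes. It was at 2.0, 0.58, 3.18, 1.59 and 1.36 log2 CPM in Control, 2.94, 1.5, 2.08, 2.26 and 0.28 in Rnaseh2b, -1.49, -1.06, -0.50, -0.53 and -1.44 in Atm, and -0.49, -1.08, -0.83, -1.27 and 2.72 in Rnaseh2b/Atm. All Atm libraries and 4 of the 5 Rnaseh2b/Atm libraries were below every Control and Rnaseh2b library, and Rnaseh2b/Atm library 5 was as high as the controls. The values rest on 11 to 43 reads in Atm and 98 to 341 in Control. Bub1b was called lower in Atm than in Control by -2.75 ± 0.64 (adjusted p = 0.0289), in Rnaseh2b/Atm than in Control by -1.93 ± 0.64 (0.0136) and in Rnaseh2b/Atm than in Rnaseh2b by -2.0 ± 0.64 (0.0143). The first call was kept in 7 of 18 alternatives, whose adjusted p ran from 0.00794 to 0.141. It was lost without any one of Control libraries 1, 3, 4 and 5 or Atm libraries 1, 2 and 5, where the difference remained between -2.84 and -2.39. The within-group SD of 1.10 was larger than that of 99.1% of genes, and at P5, where all Bub1b levels moved with the other members, it was 0.69.

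Pttg1 had 2 levels at P28 that did not follow genotype. It was at -1.68, 2.77, -1.91, 3.87 and 3.88 log2 CPM in Control, 3.18, -0.85, -0.60, -2.22 and 3.98 in Rnaseh2b, 3.21, 2.78, 2.99, -0.60 and -1.63 in Atm, and -0.19, 3.36, -0.23, -0.12 and 3.58 in Rnaseh2b/Atm. Every group holds libraries at 2.77 or above and libraries at -0.12 or below, and no library lies between. The read counts are 204 to 1362 in the higher libraries and 5 to 79 in the lower ones. The within-group SD of 2.51 was larger than that of 99.9% of genes. Rnaseh2b differed from Control by -0.69 ± 1.45 and Rnaseh2b/Atm by -0.11 ± 1.45 (95% interval -3.15 to 2.94), so differences of several-fold in either direction lie within the error. The high Bub1b library of Rnaseh2b/Atm was high for Pttg1 too, but Rnaseh2b/Atm library 2 was high for Pttg1 and low for Bub1b.

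**Figure D2:**
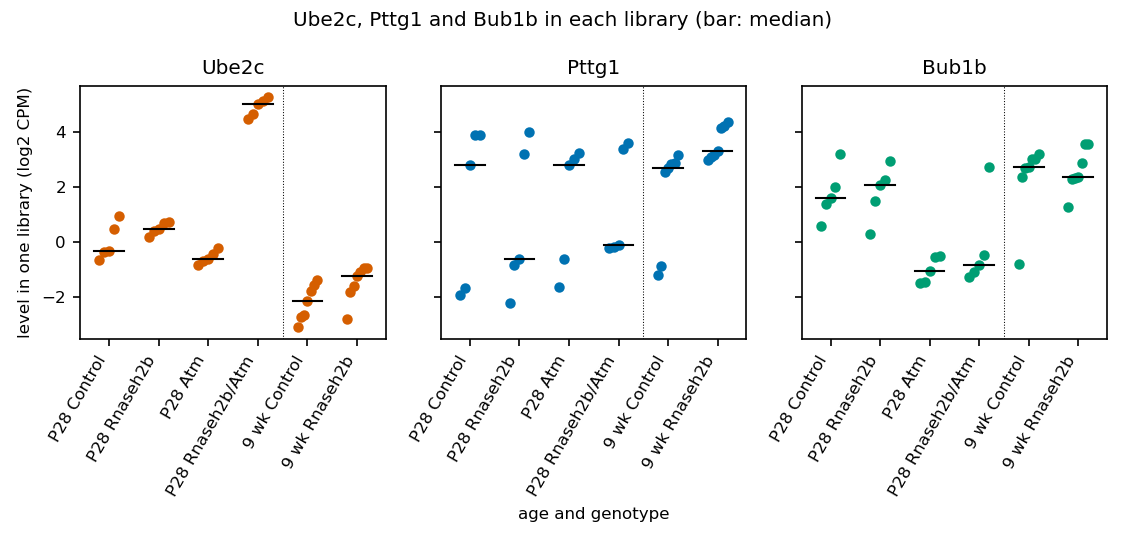
Level of Ube2c, Pttg1 and Bub1b in log2 CPM in each library, by genotype, at P28 (left of the dotted line) and 9 weeks (right); points are libraries and bars are medians. Pttg1 splits into libraries above 2.5 and below 0 in all P28 groups and in the 9-week controls, Bub1b is low in the P28 Atm libraries and in 4 of 5 Rnaseh2b/Atm libraries, and Ube2c is high in all 5 P28 Rnaseh2b/Atm libraries.

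In Rnaseh2b/Atm at P28 a large part of all genes differed, and a smaller share of the members was called than of all genes; the difference in share was not tested. Against Control, 10 of 27 members (37.0%) were called, 6 higher and 4 lower, beside 63.6% of all 16530 genes. Against Atm, 13 (48.1%) were called, 6 higher and 7 lower, beside 61%, and against Rnaseh2b 9 (33.3%), 3 higher and 6 lower, beside 49.5%. In all 3 comparisons the members called higher include Ube2c and Kif23. The reads of Ube2c cannot be assigned to it alone, and Kif23 would not have been tested without the Rnaseh2b/Atm libraries, as described below. The interaction of Rnaseh2b with Atm, the difference between the compound mutant and the sum of both single effects, was called for 5 members, beside 37.7% of all genes. The median of the 24 tested members other than Ube2c, Pttg1 and Bub1b was 0.14, 0.04 and -0.10 in these comparisons, so the members did not move as a block as they had at P5. The 3 comparisons share the Rnaseh2b/Atm libraries.

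**Figure D3:**
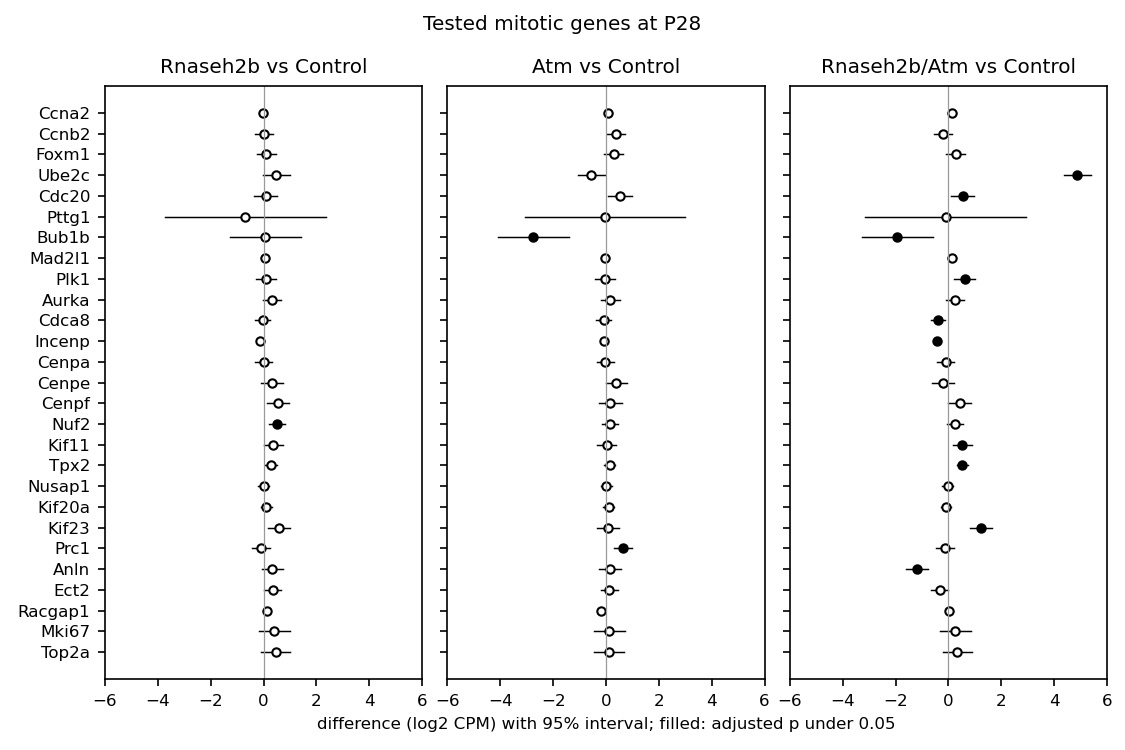
Difference from Control in log2 CPM for each of the 27 members tested at P28, in Rnaseh2b, Atm and Rnaseh2b/Atm, with 95% intervals; filled points have an adjusted p under 0.05. Ube2c lies far to the right in Rnaseh2b/Atm, Bub1b to the left in Atm and Rnaseh2b/Atm, and Pttg1 has the widest interval in each panel.

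The cytokinesis genes are given in turn. Anln was at 4.94, 5.23, 5.14, 4.90 and 5.18 log2 CPM in Control, 5.44, 5.31, 5.40, 5.41 and 5.53 in Rnaseh2b, 5.26, 5.38, 4.85, 5.59 and 5.08 in Atm, and 4.24, 3.11, 3.78, 3.6 and 4.65 in Rnaseh2b/Atm. All Rnaseh2b/Atm libraries were below all others, and the interaction was -1.69 ± 0.28 (limma adjusted p = 0.000134). Against Control alone, 3 of the 27 members lay wholly below, beside 22.2% of all genes. Wholly above Control lay 4 members, beside 23.5% of all genes. Anln fell by 1.20 ± 0.20 against Control (3.28e-05). Kif23 was at -0.64, -1.02, -0.85, -0.86 and -0.95 in Control and at 0.44, -0.22, 0.51, 0.24 and 0.86 in Rnaseh2b/Atm, without overlap, and rose by 1.23 ± 0.20 (3.56e-05). Rnaseh2b libraries were at -0.38, -0.34, -0.28, 0.32 and -0.68, overlapping both of these groups. Kif23 reached 1 CPM in 4 Rnaseh2b/Atm libraries and 1 Rnaseh2b library, and in no Control or Atm library. Without the Rnaseh2b/Atm libraries it would not have been tested, so its p-value is no independent support for the rise. Prc1, higher in Atm, was at 3.0, 3.56, 3.18, 3.46 and 2.87 in Rnaseh2b/Atm, which is -0.77 ± 0.16 from Atm (0.000406) with an interaction of -0.67 ± 0.23 (0.0265). Ect2, a regulator of cytokinesis, differed from Rnaseh2b by -0.67 ± 0.15 (0.00118), and its interaction was -0.80 ± 0.21 (0.00661). Racgap1 rose against Atm by 0.20 ± 0.06 (0.00653).

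Among the kinases and passengers, Incenp was at 4.23, 4.19, 4.34, 4.21 and 4.32 log2 CPM in Control and at 3.88, 3.65, 3.85, 4.0 and 3.80 in Rnaseh2b/Atm. The groups do not overlap, as is the case in this direction for 22.2% of all genes, and Incenp fell by 0.42 ± 0.07 (2.3e-05). Cdca8, which encodes borealin of the same complex, fell by 0.40 ± 0.13 (0.011). Plk1, the kinase that acts at centrosomes and kinetochores, rose by 0.61 ± 0.18 (0.00682). Of the spindle factors, Tpx2, which activates Aurora A, rose by 0.53 ± 0.10 (0.000209), at 1.59, 1.44, 1.82, 1.63 and 1.65 in Rnaseh2b/Atm against 1.10, 1.24, 1.04, 0.91 and 1.20 in Control. Kif11 rose by 0.52 ± 0.17 (0.0122) and Cdc20 by 0.54 ± 0.21 (0.0294). Cenpe differed by -0.59 ± 0.20 from Atm (0.0133) with an interaction of -0.92 ± 0.28 (0.0133), and Ccnb2 differed by -0.57 ± 0.16 from Atm (0.00491). Cdc20 shares 2.84% of its annotated exon bases with Elovl1 on the other strand, Cdca8 4.48% with 9930104L06Rik and Prc1 11.1% with Rccd1.

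Mki67 and Top2a were not called in any P28 comparison, and their Rnaseh2b/Atm libraries fell into 2 sets. Mki67 was at 0.79, 0.95, 0.82, 0.61 and 0.39 log2 CPM in Control and at 1.65, 0.24, 1.67, -0.08 and 1.38 in Rnaseh2b/Atm. Top2a was at 0.72, 0.74, 0.80, 0.66 and 0.51 in Control and at 1.66, 0.27, 1.57, 0.20 and 1.39 in Rnaseh2b/Atm. For both genes libraries 1, 3 and 5 lay above all controls and libraries 2 and 4 below all of them, and the mean differences of 0.26 ± 0.28 and 0.33 ± 0.27 were within the error. The summed CPM of oligodendrocyte progenitor markers in the same 5 libraries was 355, 190, 338, 232 and 365, against 200 to 273 in Control. Other lists divided the same 5 libraries alike. The summed CPM was 1924, 3131, 1633, 3004 and 1701 for granule neuron markers, 2220, 2877, 2095, 2676 and 2180 for astrocyte and Bergmann glia markers, and 218, 193, 254, 197 and 223 for microglial markers. The mean log2 CPM of the 24 tested members other than Ube2c, Pttg1 and Bub1b was 1.77, 1.46, 1.73, 1.48 and 1.76. Libraries 1, 3 and 5 thus differ from libraries 2 and 4 in several cell type lists at once, and the part of these in the Mki67 and Top2a values was not tested.

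Ube2c gave the largest difference among the members at P28. It was at 0.47, -0.36, 0.93, -0.66 and -0.33 log2 CPM in Control, 0.70, 0.45, 0.71, 0.41 and 0.19 in Rnaseh2b, -0.22, -0.42, -0.84, -0.60 and -0.68 in Atm, and 5.11, 4.99, 4.63, 5.24 and 4.44 in Rnaseh2b/Atm. As deposited, Rnaseh2b/Atm was higher by 4.87 ± 0.24 than Control (1.07e-11), by 5.43 ± 0.24 than Atm (2.09e-12) and by 4.39 ± 0.24 than Rnaseh2b (1.01e-10), with an interaction of 4.95 ± 0.34 (7.55e-09). The groups are far apart, but the reads cannot be assigned to Ube2c alone. Ube2c (chromosome 2, 164769898 to 164778822, plus strand, GRCm38) overlaps Tnnc2 (164777161 to 164779967, minus strand), the fast skeletal muscle troponin C. In the annotation used here (GENCODE, GRCm38) the last exon of the longer Ube2c transcript runs across 5 exon stretches of Tnnc2, between 164777190 and 164778227. These hold 592 bases, which are 22.8% of the 2600 exon bases of Ube2c.

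The read counts of Ube2c and Tnnc2 were nearly equal in the compound mutant. Recovered from the deposited values, Ube2c had 3128, 1644, 1604, 2409 and 878 reads in the Rnaseh2b/Atm libraries, and Tnnc2 had 3077, 1642, 1592, 2406 and 862. The difference was 51, 2, 12, 3 and 16 reads. In the other 15 libraries Ube2c had 15 to 118 reads and Tnnc2 1 to 61, and in all 20 libraries Ube2c had at least as many reads as Tnnc2. Tnnc2 itself was higher in Rnaseh2b/Atm than in Control by 6.14 ± 0.52 (adjusted p = 8.42e-09). When the Tnnc2 reads were taken from those of Ube2c, the difference turned to -1.72 ± 0.51 against Control (0.00627), -1.56 ± 0.53 against Atm (0.0167) and -2.60 ± 0.49 against Rnaseh2b (0.000198), on 2 to 51 remaining reads. This subtraction was added after the values had been seen. It assumes that every Tnnc2 read was also counted for Ube2c, which the sources used here do not state, so the direction of Ube2c in the compound mutant is not determined by these data. Without Tnnc2, the summed CPM of the 5 other skeletal muscle markers in the P28 table was 9.89 to 10.98 in Rnaseh2b/Atm, within the Control range of 5.68 to 14.7. Of these 5, 3 were tested, and Mylpf, a fast muscle myosin light chain, was the one called, higher by 0.68 ± 0.25 (adjusted p = 0.0246). At P5 Tnnc2 had 2 to 353 reads beside 373 to 23834 for Ube2c, and the highest ratio was in Rnaseh2b/Atm library 3, with 142 Tnnc2 reads beside 1730.

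**Figure D4:**
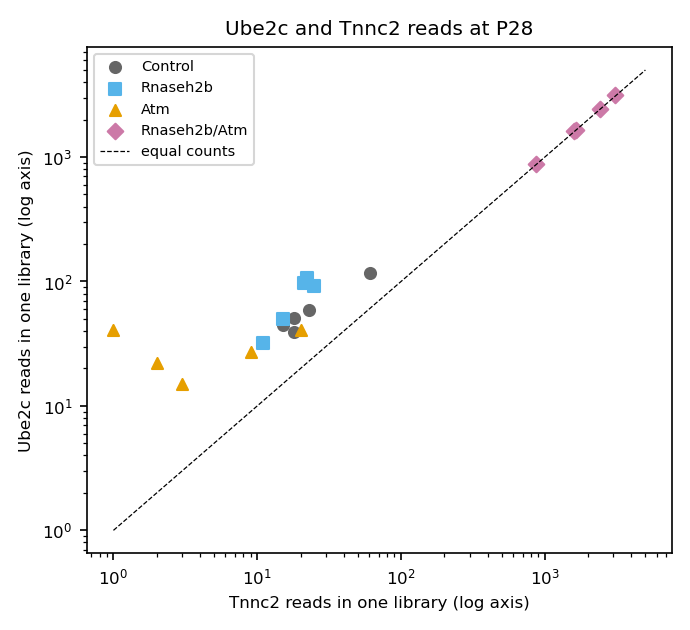
Reads of Ube2c (vertical) against reads of Tnnc2 (horizontal) in each of the 20 P28 libraries, both on log axes; the dashed line marks equal counts. The 5 Rnaseh2b/Atm libraries lie on the line between 862 and 3128 reads, and the other 15 lie above it at up to 118 Ube2c reads.

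The related lists at P28 were mixed as well. Of all genes, 31.5% were called higher and 32.1% lower in Rnaseh2b/Atm than in Control. Of 28 other mitotic genes tested, 9 were called higher and 5 lower in Rnaseh2b/Atm than in Control, with a median of 0.06; the kinesin Kif22 was at -0.71 and the condensin subunit Ncapd2 at -0.74. Of 17 APC/C subunits and partners, 2 were called higher and 12 lower, with a median of -0.24. Of 20 DREAM, MuvB and E2F regulators tested, 2 were called higher and 9 lower, with a median of -0.17; E2f7, a repressor, was at -2.07 and Cdkn1a, the p53 target p21, at 1.61. Cell type markers differed in the same comparison. All 10 granule neuron markers were called lower, with summed CPM of 1633 to 3131 against 6602 to 7395, and all 10 microglial markers higher, at 193 to 254 against 124 to 139. Of the 6 midbrain markers tested 5 were called higher, at 479 to 617 against 14.9 to 58.1 summed CPM over the list. CPM values shift when the make-up of the tissue shifts, and the part of these cell types in the members' differences was not tested.

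At 9 weeks Rnaseh2b against Control called 1 of the 18 tested members, beside 20.2% of all 15078 genes. Pttg1, which reached 1 CPM in all Rnaseh2b libraries and in 5 of 7 controls, was the member called. Over the 7 controls it was at -0.87, 2.86, 3.14, 2.69, -1.20, 2.81 and 2.53 log2 CPM (lowest -1.20, median 2.69, highest 3.14), and over the 7 Rnaseh2b libraries at 4.33, 3.15, 3.31, 2.98, 4.15, 4.2 and 3.08 (lowest 2.98, median 3.31, highest 4.33). The groups overlap between 2.98 and 3.14, and Control libraries 1 and 5 lie far below the other 5. Pttg1 was higher in Rnaseh2b by 1.89 ± 0.63 (95% interval 0.56 to 3.22, limma adjusted p = 0.0432). Without the Rnaseh2b libraries Pttg1 would not have been tested, so this p-value is no independent support for the rise. The call was kept in 13 of 24 alternatives (0.0266 to 0.264). Without Control library 1 the difference was 1.46 (0.0739) and without Control library 5 it was 1.41 (0.0623), and leaving out any one of Rnaseh2b libraries 1, 2, 3, 5 and 6 also ended the call. The library codes fall into 2 ranges, and within them the difference was 1.89 ± 0.89 (0.195) and 1.89 ± 0.77 (0.264).

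The other members at 9 weeks did not pass. Top2a differed by 0.66 ± 0.23 (adjusted p = 0.053), running from -0.70 to 0.57 log2 CPM in Control and from -0.23 to 1.43 in Rnaseh2b. Mki67 differed by 0.37 ± 0.20 and ran from 0.03 to 1.24 and from 0.29 to 1.41. Bub1b differed by 0.29 ± 0.51; Control library 4 was at -0.79 and the other controls at 2.37 to 3.18, and Rnaseh2b ran from 1.27 to 3.57. The within-group SD was 1.40 for Pttg1 and 1.14 for Bub1b, against 0.118 to 0.474 for the 16 other tested members. Ube2c was under the limit, at -3.09 to -0.93 log2 CPM over both groups. Anln, the most abundant member, ran from 5.14 to 5.80 in Control and from 5.13 to 5.94 in Rnaseh2b. Of all genes, 10.6% were called higher and 9.57% lower. Of 19 other mitotic genes tested, 1 was called lower. Of the markers, 4 of 8 for oligodendrocyte progenitors (summed CPM 120 to 187 against 92.2 to 122) and 8 of 10 for microglia were called higher, and 5 of 10 for granule neurons lower; their part in the members' values was not tested.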

How the data were processed

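RNA came from whole cerebellum; per the labels' protocols it was extracted with TRIzol and sequenced from a stranded total RNA kit, a text that also stands on the P28 samples labelled poly-A enriched. The submitters' processing notes name Trim Galore, STAR, BWA, HTSeq and limma, with no versions, and build mm9. The authors deposited log2 CPM and FPKM per gene and library. The deposited 9-week log2 CPM has equal gene means in library codes 11 to 16 and 50 to 58, so a difference between these code ranges, whose meaning the labels do not give, had been removed and the spread is slightly underestimated; the deposited 9-week FPKM, shifted likewise, was treated as a score, with negatives set to 0. Whole reads were recovered from the P5 and P28 log2 CPM (100% of values within 0.01 of a whole read), which gave the depth; 9-week depth is unknown.

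Groups follow the genotype labels. Differences were tested on deposited log2 CPM with limma 3.58.1 in R 4.3.3 (empirical Bayes with trend), after requiring 1 CPM in 3, 5 or 7 libraries at P5, P28 and 9 weeks. Pseudocounts of 1 and 0.1 were used for FPKM alternatives. At P5, 3 rows naming no gene, 19.7 to 31.7% of each library, were dropped; 23 gene names turned into dates in each table stayed. The fit was tested on simulated data. The members, lists and alternatives were chosen with earlier results of these data known. Named genes are Ube2c, Pttg1, Bub1b, the called members with the smallest adjusted p in each comparison (at most 8), and at most 3 called genes per list. Outside this rule, Mki67, Top2a, Anln, Incenp and Racgap1 levels, some P5 members by role and the later members of the P28 comparison with Atm were named after their values were seen. Promoter windows came from RefSeq GRCm38.p6 and exon overlaps from GENCODE on GRCm38, another build than mm9.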

Additional observations from a re-analysis of the deposited data

Results flagged for a closer look

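Of 136 groups of 4 to 7 libraries tested member by member, 4 held a library far from the rest. For independent normal values this rule flags about 1 in 20. The groups share libraries and include members named because they were called, so chance was not assessed. Prc1 was at 3.98 log2 CPM in P28 Control library 2, with the nearest control at 3.22. Bub1b was at 2.72 in P28 Rnaseh2b/Atm library 5, with the nearest at -0.49, and at -0.79 in 9-week Control library 4, with the nearest at 2.37. Kif11 was at 1.23 in 9-week Rnaseh2b library 3, with the nearest at 0.73. The effect of Rnaseh2b loss at P28 differed with and without Atm loss, by the interaction in limma, for 5 of 27 members (18.5%). The share over all genes was larger, at 37.7%. Ube2c differed by 4.95, as deposited and with the Tnnc2 reads in it. The others were Anln by -1.69, Cenpe by -0.92, Ect2 by -0.80 and Prc1 by -0.67.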

How the results depend on the processing

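At P5, 0 members were called with all libraries and groups. Without Control library 2 and Atm library 1 the count was 34 for Rnaseh2b/Atm against Control, 19 against Atm, 35 against Rnaseh2b and 35 against Rnaseh2b/p53. Of all genes, 41.4%, 22.7%, 23.1% and 46.4% were called in these comparisons, in either direction. With only the compared groups the count was 34 against Rnaseh2b and 35 against Rnaseh2b/p53, beside 13.4% and 46.8% of all genes. With libraries recentred on the median gene the count was 1 against Rnaseh2b/p53. At P28, Rnaseh2b against Control (1 called) gave 0 with no filter on low values, 3 with only the compared groups and 0 to 1 without single libraries. Atm against Control (2 called) gave 1 with only the compared groups, with log2(FPKM + 1), with log2(FPKM + 0.1) and with voom on recovered reads, and 0 to 2 without single libraries. At 9 weeks (1 called) the count was 2 with no filter and with log2(FPKM + 0.1), 0 within either range of library codes or with the range as a term, and 0 to 2 without single libraries. The counts of Rnaseh2b/Atm at P28 stayed within 1.5 times, at 9 to 12 against Control, 12 to 13 against Atm, 7 to 10 against Rnaseh2b and 4 to 7 for the interaction without single libraries. Taking the Tnnc2 reads from Ube2c, chosen after seeing the data, reversed Ube2c in Rnaseh2b/Atm to -1.72 against Control, -1.56 against Atm, -2.60 against Rnaseh2b and -2.44 for the interaction. Over called members, 714 values kept direction and call, 77 kept direction and lost the call, and 4, those of Ube2c, reversed. Where no value shows it, the cause was not tested.

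Replicate numbers are shared between groups, but same-numbered libraries did not deviate together: over 30 pairs at P28 the correlation ran from -0.59 to 0.45. With the number as a block, the count was 0 for Rnaseh2b against Control at P28 and 1 for Atm against Control. Low P28 levels, such as 5 to 79 reads of Pttg1, limit the precision there.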
